A study of Mus musculus with 28 samples.

Results

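The 9 genes described here encode immunoglobulin chains and parts of the B cell antigen receptor. They are the kappa and lambda light chain constant genes Igkc and Iglc2, the heavy chain rows Ighm and Ighg, the joining chain gene Igj (now named Jchain), the receptor signalling subunits Cd79a and Cd79b, the B cell surface protein gene Ms4a1 (CD20) and the coactivator gene Pou2af1. They were taken by name from the 33924 gene rows of a table of single liver cells, and all 9 were found. The table does not say which gamma subclass its Ighg row holds. Values of the rows Iglc3, Ighg1 and Ighg2c are given for comparison. Igha, Ighd, Iglc1 and Mzb1 were not analysed here.

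A B cell carries its antibody on the surface as paired heavy and light chains, and the CD79A and CD79B proteins pass the signal into the cell. Each B cell normally uses either a kappa or a lambda light chain, and its first heavy chain class is IgM. A plasma cell secretes antibody in large amounts, and the joining chain links secreted IgM or IgA into polymers. In the adult liver, B cells lie among the lymphocytes of the sinusoids.

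The cells came from livers of C57BL/6 male mice that were fasted for 2 hours, anaesthetised with ketamine and xylazine and perfused with collagenase. The single non-parenchymal cells came from 11 libraries of 2 mice, aged 3 and 4 months. Hepatocytes sorted with an attached endothelial cell came from 17 libraries of 3 mice, aged 6 or 7 weeks. Transcripts were counted with MARS-seq, which reads the 3' end of each mRNA and tags each molecule with a unique molecular identifier (UMI). The single-cell table held 3720 wells with a median of 526.5 gene UMIs (range 60 to 5531), and the pair table held 4621 wells with a median of 10450. No source maps wells to mice or libraries, so each table is 1 sample, wells are not replicates and no test was made. Intervals are at 95% throughout and reflect counting error alone.

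Iglc2 and Iglc3 are shown first because the split of lambda UMIs between their rows returns below. The last 150 coding bases of both genes on mouse chromosome 16 follow, 5′ to 3′ on the minus strand of GRCm38, at chr16:19198536-19198685 for Iglc2 and chr16:19065365-19065514 for Iglc3. Capitals mark the bases that differ between the pair.
Iglc2: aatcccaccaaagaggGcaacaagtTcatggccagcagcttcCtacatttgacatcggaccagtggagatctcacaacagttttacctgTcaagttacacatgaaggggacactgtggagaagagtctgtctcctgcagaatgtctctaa
Iglc3: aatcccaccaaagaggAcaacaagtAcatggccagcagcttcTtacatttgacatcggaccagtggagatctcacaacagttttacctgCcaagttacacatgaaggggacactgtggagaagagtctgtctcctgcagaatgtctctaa
These stretches differ at 4 positions. Over the 317 aligned coding bases the identity was 96.5%, and over 135 aligned bases after the stop codon it was 92.6%. How the authors assigned reads that fit both genes is not given in the sources used here, so the split between these rows is uncertain.

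RefSeq promoter windows were found for 3 of the 9 members (Cd79a, Pou2af1 and Jchain). The 250 bases before the start of Cd79a are shown because the gene was among those most restricted to B-like wells. They lie on the plus strand of GRCm38.p6 at chr7:24897247-24897496, and capitals mark an E-box match (CACCTG, here on the minus strand) followed by a match to the PU.1 core (GAGGAA, minus strand).
Cd79a: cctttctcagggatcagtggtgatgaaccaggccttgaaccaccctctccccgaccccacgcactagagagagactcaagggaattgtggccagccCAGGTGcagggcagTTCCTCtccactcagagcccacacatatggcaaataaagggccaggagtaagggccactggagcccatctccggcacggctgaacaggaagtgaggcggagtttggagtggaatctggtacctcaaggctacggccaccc
Searched on both strands, the PU.1 core was held by 23.3% and the E-box by 17.2% of 32851 promoter windows of that length. Exact matches to the octamer ATTTGCAT (1.60% of windows) and the EBF pattern CCCNNGGG (11.8%, N is any base) were not found in the 3 windows. Sites that depart from these patterns were not searched for.

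Single wells with at least 300 gene UMIs (2692 wells) were clustered without the 9 members and without any immunoglobulin row, so that these genes could not shape the classes. One cluster of 283 wells was B cell-like: all 20 B cell markers of the fixed list that are not members and are in the table were at least 2-fold higher in it. The summed level of the 14 endothelial markers was 873 UMIs per 1000000 gene UMIs in it, against 9036 in the other kept wells, and that of the 14 T cell markers 381 against 2626. Of the other lists, the 10 hepatocyte markers were at 10050 against 8853, and 9 plasmacytoid dendritic markers at 1469 against 1564. No cluster was plasma cell-like. Immunoglobulin UMIs were very uneven: 5 wells with at least 100 such UMIs each, called Ig-rich here, held 55.1% of the 7083 immunoglobulin UMIs in the table. That limit was set after the values were seen; the lowest Ig-rich well held 118 and the next well 89. Values are therefore given without the Ig-rich wells unless stated, which leaves 281 B-like wells.

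B-like wells had the highest level of 7 members among the classes. Igkc led with 4794 UMIs per 1000000 (interval 4518 to 5082), followed by Cd79b with 2106 and Ms4a1 with 1406. Ighm reached 955, Iglc2 811 and Pou2af1 637, while Cd79a was low at 161 (interval 114 to 221). The intervals of Ighm and Iglc2 overlap, so their order is within counting error. These levels count 3' tags, so they are per molecule and not per base.

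Ighg and Igj were low in B-like wells, and their order among the classes turned on single blocks and wells. Ighg, a heavy chain class reached by switching, was at 72.2 UMIs per 1000000 (interval 42.1 to 116), against 81.4 in NK-like wells. Of the 15 NK-like UMIs, 14 lay in block 11 of the well numbers, whose Ighg is described below. Without block 11, Ighg had 8 UMIs in 236 B-like wells (38.3 per 1000000, interval 16.5 to 75.5) and 2 in 2174 other kept wells (interval 0.12 to 3.60). Of those 8 UMIs, 5 lay in block 10.

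Igj was at 59.4 in B-like wells (interval 32.5 to 99.7), against 69.9 in endothelial-like wells. One endothelial-like well of block 8 held 19 of the 42 UMIs behind the second value, which was 38.3 without it (interval 24.3 to 57.5). All 14 Igj UMIs of B-like wells lay in blocks that hold an Ig-rich well. In the other blocks, 163 B-like wells held none, which allows up to 19.1 per 1000000. Each gene had a UMI in 4.27% of B-like wells, at a median depth of 676 UMIs. Ighg had one in 5.13% of NK-like wells (median depth 706), and Igj in 7.97% of conventional dendritic-like wells (median depth 1384).

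**Figure D1:**
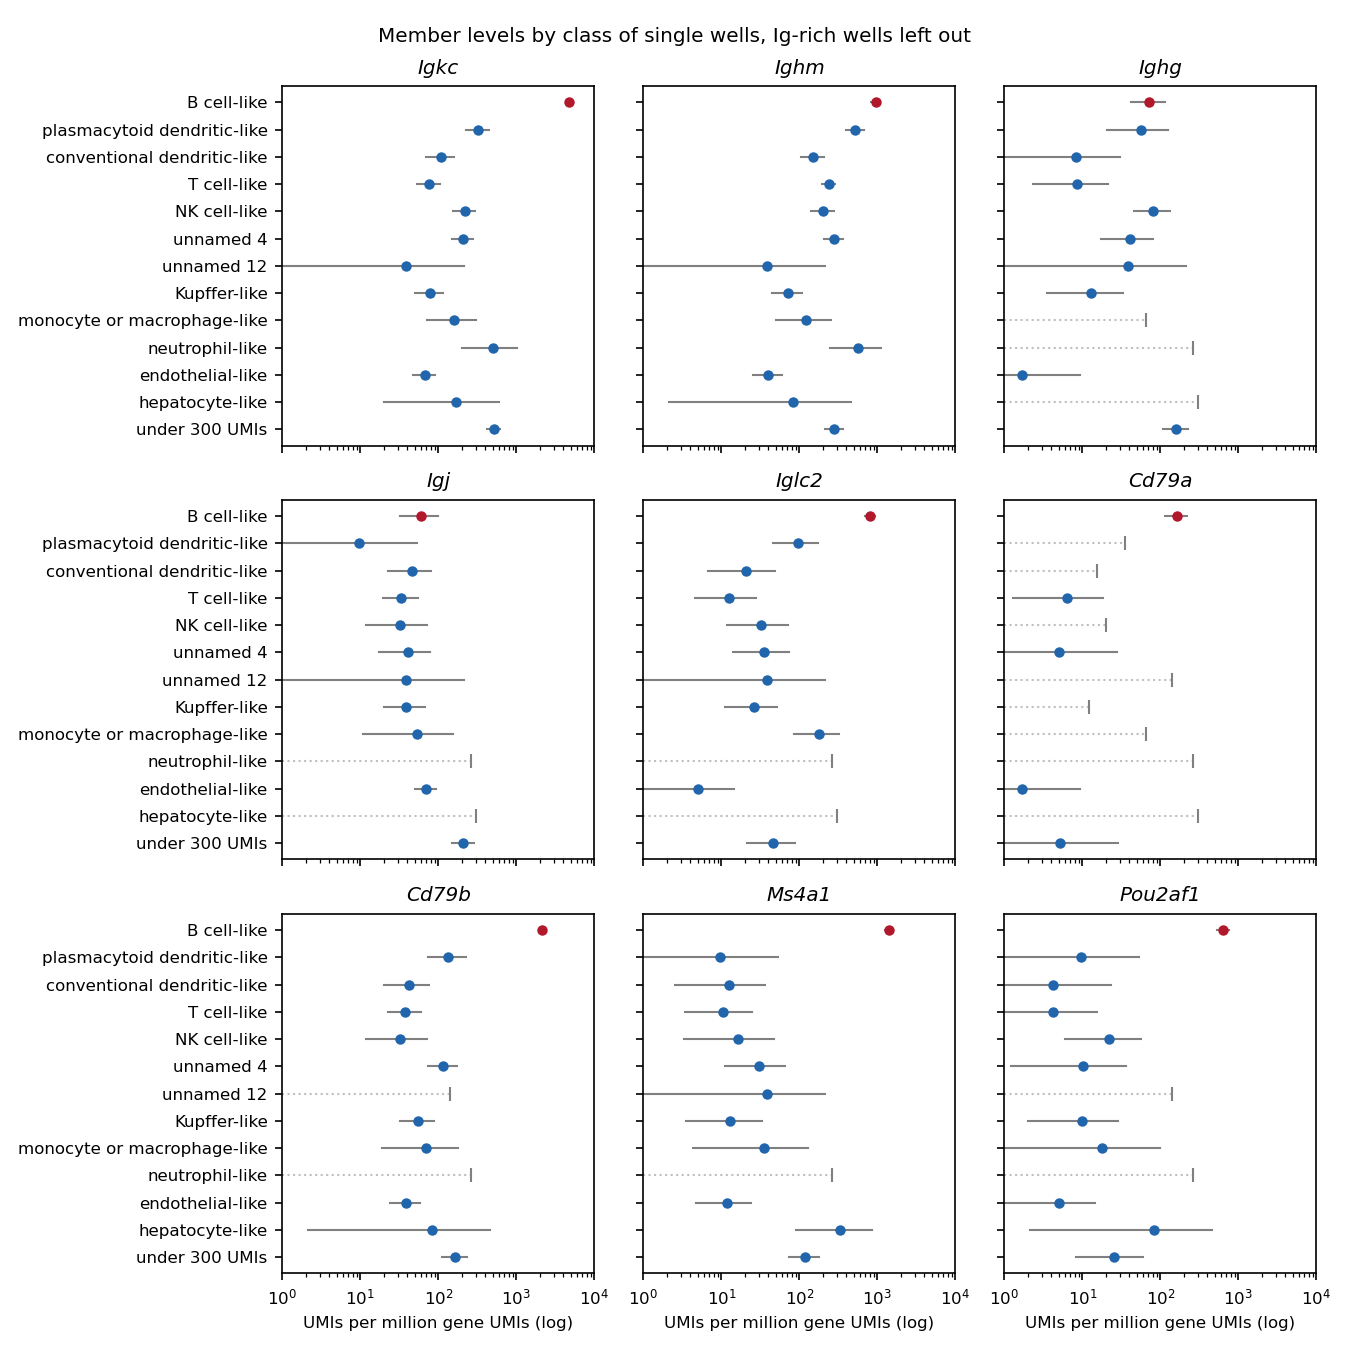
Level of each member in UMIs per 1000000 gene UMIs (log axis) by class of single wells, with the Ig-rich wells left out; points are summed levels, solid lines their 95% Poisson intervals, and a dotted line with a tick marks the upper limit where no UMI was seen. B-like wells (red) lie apart from the other classes for Igkc, Iglc2, Cd79b, Ms4a1 and Pou2af1, but not, with all blocks pooled, for Ighg or Igj.

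Against all other kept wells, Ms4a1 was 86.7-fold higher in B-like wells (interval 61.3 to 126), with 331 UMIs against 36. Pou2af1 was 78.6-fold higher (interval 48.0 to 136) and Cd79a 71.6-fold (interval 28.2 to 233), from 38 UMIs against 5. Igkc was 40.9-fold, Cd79b 40.3-fold and Iglc2 32.2-fold higher. Ighm was 5.91-fold higher (interval 4.98 to 7.00) and Ighg 3.91-fold (interval 2.08 to 7.03), whereas Igj was 1.32-fold (interval 0.70 to 2.32). Without block 11, Ighg was 38.5-fold higher (interval 7.68 to 372), from 8 UMIs against 2. Without blocks 10 and 11 it was 14.7-fold higher (interval 1.68 to 176), from 3 UMIs against 2. Both folds rest on fewer than the 30 UMIs asked of other genes. Counting at least 2-fold as called, 8 of 9 members were called, where 7.43% of the 9473 genes with at least 30 UMIs were higher by that rule and the median gene was at 0.83.

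The Ig-rich wells decided the values of the secreted chain genes. With them included, the fold of Ighg was 135, of Igj 10.3 and of Ighm 1.48, since the 3 Ig-rich wells with Ighm lay outside the B-like class and the well with Ighg inside it. Again 8 of 9 members passed 2-fold (background 7.08% of 9480 genes), but the member that did not was then Ighm in place of Igj. That placement depended on the clustering. The Ighm-rich well of block 10 joined the B-like class with a minimum of 150 or 500 UMIs and with clusters from all genes, and Ighm was then 16.2-fold, 30.5-fold and 32.6-fold higher, at 4306, 4748 and 5256 UMIs per 1000000 in place of 931. Without the Ig-rich wells, its fold over the same clusterings and both other resolutions was 5.15 to 6.23. The folds of Ms4a1 (82.3), Cd79a (69.9), Cd79b (39.0) and Pou2af1 (73.1) moved little.

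Over single B-like wells the members were sparse. Igkc ranged from 0 to 32 UMIs with a median of 3, and 229 of 281 wells (81.5%, interval 76.5 to 85.9%) held at least 1. The share in endothelial-like wells was 2.40%, at a median depth of 566 UMIs. Cd79b had a UMI in 62.6% of B-like wells, Ms4a1 in 49.1%, Iglc2 in 35.2%, Pou2af1 in 31.7%, Ighm in 30.2% and Cd79a in 12.8%. At an equal depth of 300 UMIs per well, taken as the expectation over all draws, these shares were 66.0% for Igkc, 40.8% for Cd79b, 28.5% for Ms4a1, 19.3% for Iglc2, 16.0% for Ighm, 15.6% for Pou2af1 and 4.51% for Cd79a. The SD between draws was 0.93 to 2.00 percentage points, so the order of Ighm and Pou2af1 is within it.

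A single B-like well of block 9 held 56 of the 225 Ighm UMIs of the class, and the median well held none. The top 10% of B-like wells held 71.6% of the Ighm UMIs, and 62.1% without that well. The same share was 57.1% for Iglc2 and 56% for Pou2af1, which had similar or fewer UMIs, and 36.7% for Igkc and 39.1% for Cd79b, which had more. With the 2 Ig-rich wells of the class included, 8 of 283 B-like wells had no member UMI and 68 had 4 of the 9 members. Among the 2409 other kept wells, which include the Ig-rich wells outside the class, 77.5% had no member and 4 wells had 4 or more. Those 4 include the Ig-rich well of block 10 and 1 of those of block 6.

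**Figure D2:**
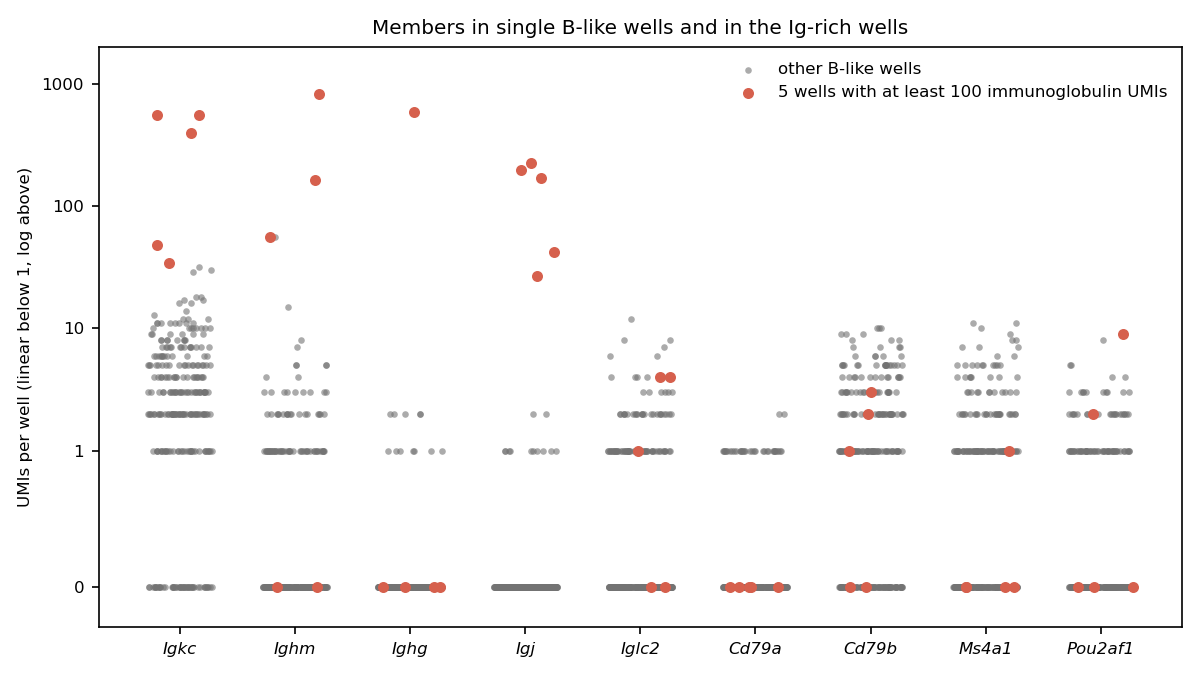
UMIs of each member per well (linear below 1, log above) in the B-like wells (grey) and the 5 Ig-rich wells (red, of which 2 are B-like), with points spread sideways for legibility. Outside the Ig-rich wells Igkc reached 32 UMIs and Igj 2, while the Ig-rich wells held 34 to 556 Igkc and 27 to 227 Igj UMIs and no Cd79a.

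Well numbers fall into 11 plate-sized blocks, in a lower run (blocks 1 to 5) and an upper run (blocks 6 to 11). Blocks 6 to 8 held no B-like well. Over the other 8 blocks the Cd79b level in B-like wells ranged only from 1722 to 2533 UMIs per 1000000 and Ms4a1 from 1023 to 1889. Ighm ranged from 286 to 3302, and it was 2.71-fold higher in the upper run than in the lower run (interval 2.06 to 3.55). Without the well of block 9 with 56 Ighm UMIs, that block fell from 3302 to 852 and the ratio was 1.52 (interval 1.10 to 2.09). For Cd79b the same ratio was 0.99 (interval 0.81 to 1.20). The runs may differ in mouse, library or depth, which cannot be told apart here.

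The 5 Ig-rich wells each combined Igkc with Igj, and no well held more than 1 abundant heavy chain row. The well of block 10 held 556 Igkc, 823 Ighm and 199 Igj UMIs, which with its other immunoglobulin rows made 67.2% of its 2356 gene UMIs. The well of block 11 held 553 Igkc, 584 Ighg and 170 Igj UMIs, or 48.0% of 2738 with the rest. The well of block 5 held 396 Igkc and 227 Igj UMIs and none of Ighm, Ighg or Ighg1; its heavy chain is not among the rows analysed here.

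Both remaining wells were shallow and lay in block 6. One held 48 Igkc, 164 Ighm and 42 Igj UMIs out of 462, and the other 34, 56 and 27 out of 308. Kappa made 97.1% to 99.3% of the light chain UMIs in the 5 wells. Cd79a was at 0 in all of them, Ms4a1 at 0 in 4 and at 1 in the other, and Pou2af1 ranged from 0 to 9.

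The Ig-rich wells of blocks 10, 11 and 5 held more plasma cell markers than any of the 281 B-like wells, and those of block 6 did not. Xbp1, a transcription factor of secretory cells, had 5, 10 and 9 UMIs in the wells of blocks 10, 11 and 5, and 1 and 3 in those of block 6. The wells of blocks 10, 11 and 5 held UMIs of 8, 9 and 10 of 14 plasma cell markers, the wells of block 6 of 1 and 2, and the 281 B-like wells of 0 to 3. By class, the wells of blocks 11 and 5 were B-like. The wells of block 10 and 1 of block 6 lay in an unnamed cluster with T cell markers, and the last was endothelial-like.

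**Figure D3:**
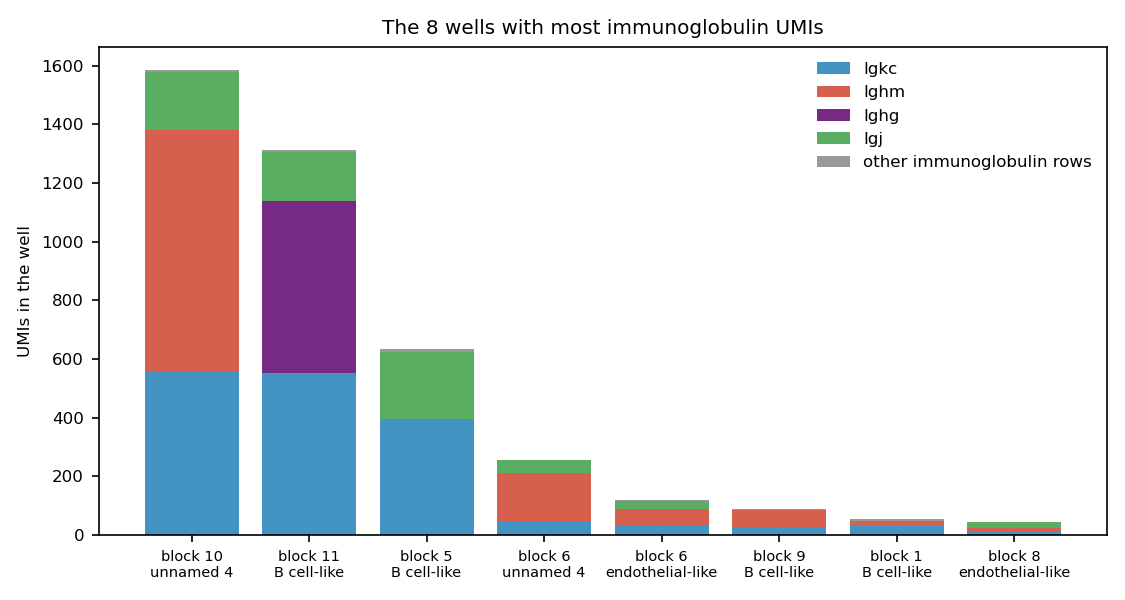
UMIs of Igkc, Ighm, Ighg, Igj and other immunoglobulin rows in the 8 wells with most of them (stacked bars; the axis starts at 0), with the block of well numbers and the class. The first 5 are the Ig-rich wells; the block 10 well reaches 1584 UMIs with Ighm as its heavy chain and the block 11 well 1313 with Ighg.

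Light chain use was scored in the 126 B-like wells with at least 5 light chain UMIs. Kappa made at least 90% of them in 40 wells (31.7%, interval 23.7 to 40.6%) and lambda in 4 wells. The other 82 wells (65.1%) passed for neither chain, and 89 wells held at least 1 UMI of each. In a well with under 10 light chain UMIs, 1 UMI of the other chain is enough to miss 90%. With 80% as the limit, 75 wells were kappa, 5 lambda and 46 neither. Lambda rows gave 23.7% of the light chain UMIs of these wells. At the 90% limit, 26 of 44 wells with at least 10 light chain UMIs passed for neither chain (59.1%). With at least 3 such UMIs it was 115 of 189 wells (60.8%). Immunoglobulin UMIs were also seen in wells outside the B-like class, as described below. Whether RNA from other wells entered these calls was not tested.

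Heavy chain rows were mostly undetected in B-like wells. Ighm alone or with a gamma row was seen in 85 of 281 wells, a gamma row in 29, both in 9 and neither in 176 (62.6%). Of the 29 wells with a gamma row, 25 were among the 88 B-like wells of blocks 10 and 11 and 4 among the 193 of the other blocks. In block 10, 16 of the B-like wells held Ighg1 (37.2%), against 36.1% of NK-like and 36.8% of Kupffer-like wells there. In the 8 wells with at least 5 heavy chain UMIs, Ighm made at least 90% in 7.

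The partners of the receptor were described through gene lists. Of the 10 genes for the receptor complex and its co-receptors, 8 were at least 2-fold higher in B-like wells and 1 was at least 2-fold lower, with a median fold of 35.4. As background for this list and those below, 7.43% of all genes tested were at least 2-fold higher. Another 28.1% were at least 2-fold lower, and the median fold was 0.83. Cd37, a tetraspanin gene, was 6.66-fold higher. Fcgr2b, the inhibitory Fc receptor, was lower, at 106 UMIs per 1000000 against 619 in the other wells, where endothelial cells also express it.

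Of 14 tested genes of proximal signalling, 8 were higher and 1 lower, with a median of 2.20. Blk, a Src family kinase of B cells, was 42.9-fold higher and the adaptor gene Blnk 10.4-fold. The tyrosine phosphatase gene Ptpn6 (2.22-fold) and the kinase genes Lyn (1.43-fold) and Prkcb (3.52-fold) had the highest levels of the list in B-like wells, with Blnk. Fyn, a Src family kinase prominent in T cells, was lower at 46.7 against 346 UMIs per 1000000.

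Of 12 B cell transcription factor genes, 8 were higher and 1 lower, with a median of 4.66. Pax5, which holds B cell identity, was 151-fold higher (48 UMIs against 3) and Ebf1 85.7-fold. Spib was 6.89-fold and Bcl11a 5.80-fold higher, while Irf8 was at 0.85-fold. Sfpi1, which encodes PU.1, was lower at 29.7 against 133.

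Genes of the plasma cell programme did not follow this pattern in the 281 wells. Of 10 tested plasma cell factor and surface genes, 3 were higher (Irf4, Tnfrsf13b and Cxcr4) and 2 lower, with a median of 0.97; Xbp1 was at 89.2 against 186 UMIs per 1000000. Cxcr4, a chemokine receptor gene, was 5.04-fold higher, while Itga4 was at 1.73-fold and Cd38 at 1.07-fold. Of 17 secretory machinery genes, 3 were higher (Pdia4, Sec11c and Ell2) and 2 lower, with a median of 0.75. Among all genes tested 7.43% were higher and 28.1% lower, with a median of 0.83. The chaperone genes Hspa5, Hsp90b1 and Calr were at 0.67-fold, 0.64-fold and 0.74-fold, and Sec11c, a signal peptidase subunit gene, was 2.03-fold higher.

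The genes most like Cd79a over the 12 classes, by Pearson correlation of log2 levels with all kept wells, were Vpreb3 (r = 0.98), Gm19980 (0.98), Fcer2a (0.97), Cxcr5 (0.96), Ccr6 (0.95), Cr2 (0.94), Blk (0.94) and Tnfrsf13c (0.93). Between 80% and 89.8% of the UMIs of each lay in B-like wells. Of these genes Vpreb3, Fcer2a, Cr2, Cxcr5 and Blk were on the marker list that named the class. The genes most like Igj were Rpl19-ps11 (r = 0.90), Rpap2, Sfn, Prmt7, Cdc25b, Ttc38, Hdac10 and Pecr, with 18.5% to 42.1% of their UMIs in B-like wells. Classes share libraries and depth, and the level of Igj by class rests on the Ig-rich wells.

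Plasmacytoid dendritic-like wells, a class of interferon-producing cells, held an immunoglobulin pattern of their own. Iglc3 had 82 UMIs in the 110 wells (779 per 1000000, interval 620 to 967), with an interval that overlaps that of B-like wells (849), and at least 1 UMI in 38.2% of wells. Iglc2 had 10 UMIs there. Iglc3 thus made 89.1% of the UMIs of both rows (interval 80.9 to 94.7%), against 51.2% in B-like wells (interval 46.1 to 56.2%). All 8 blocks with such wells held Iglc3, at 392 to 1235 UMIs per 1000000. Cd79a was not seen in the class and Ms4a1 and Pou2af1 had 1 UMI each, while Ighm had 55 UMIs in 30% of the wells.

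T cell-like wells carried Ighm more often than Kupffer-like or endothelial-like wells of similar or lower depth. In the 10 blocks other than block 10, 14.3% of 427 T-like wells held an Ighm UMI (204 per 1000000), against 0.98% of 204 Kupffer-like wells and 1.15% of 866 endothelial-like wells. The median depths were 959, 907 and 565 UMIs. In the same blocks 25.8% of 93 plasmacytoid-like, 12.6% of 103 conventional dendritic-like and 6.57% of 198 NK-like wells held one. Igkc in T-like wells was at 75.8 UMIs per 1000000, near the 78.2 of Kupffer-like wells.

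Ighg in wells outside the B-like class lay almost wholly in the block of the Ig-rich well with Ighg. Here and in the block values below, outside wells include those with under 300 gene UMIs, which were not classed. The 312 outside wells of block 11 held 70 UMIs, and the 3122 of the other 10 blocks held 2. Of the 312 wells, 80 had under 300 gene UMIs, and these held 31 of the 70 UMIs. The share of outside wells with Ighg was 17.6% in block 11 and 0.064% elsewhere. Among B-like wells of block 11, 15.6% held Ighg. Within block 11 it was seen in 19.0% of NK-like, 15.4% of Kupffer-like and 15% of T-like wells, and the intervals of these shares overlap.

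Igj outside B-like wells summed to 46 UMIs in block 5, 40 in block 10, 13 in block 11, 16 in block 6 and 23 in block 8, where 1 endothelial-like well held 19. The other blocks held 0 or 1. Ighm stood at 681 UMIs per 1000000 in block 10, and the other blocks lay between 12.1 and 272. Igkc stood at 556 in block 10 and between 12.1 and 296 in the rest. These rows did not all follow the Ig-rich wells. Block 9, without one, held Igkc at 274, above the 136 and 128 of blocks 5 and 6, which have them. Block 8, also without one, held Ighm at 272 against 91.1 in block 6, and it had the highest Igj level, at 272. Its endothelial-like well with 19 Igj UMIs also held 12 of the Ighm UMIs. That well had 46 immunoglobulin UMIs, below the limit of 100 for an Ig-rich well.

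Counts outside were taken as a share of those in the Ig-rich wells of the same block. The shares of the rows were similar in block 10, and more uneven in blocks 5, 6 and 11. In block 10, outside wells held 120 Igkc, 147 Ighm and 40 Igj UMIs, or 21.6%, 17.9% and 20.1% of the counts in the Ig-rich well. In block 11, Ighg, Igkc and Igj outside came to 12%, 12.1% and 7.65%. Rows nearly absent from that well were also seen outside in block 11, with 41 Ighm UMIs against 0 and 24 Iglc2 UMIs against 4. In block 5, Igkc outside was 8.08% and Igj 20.3% of that well, and 24 Ighm UMIs stood against 0. In block 6, Igkc, Ighm and Igj outside were 17.1%, 4.55% and 23.2% of both Ig-rich wells together. Of the 334 outside wells of block 6, 199 had under 300 gene UMIs. How these UMIs reached the wells was not tested.

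**Figure D4:**
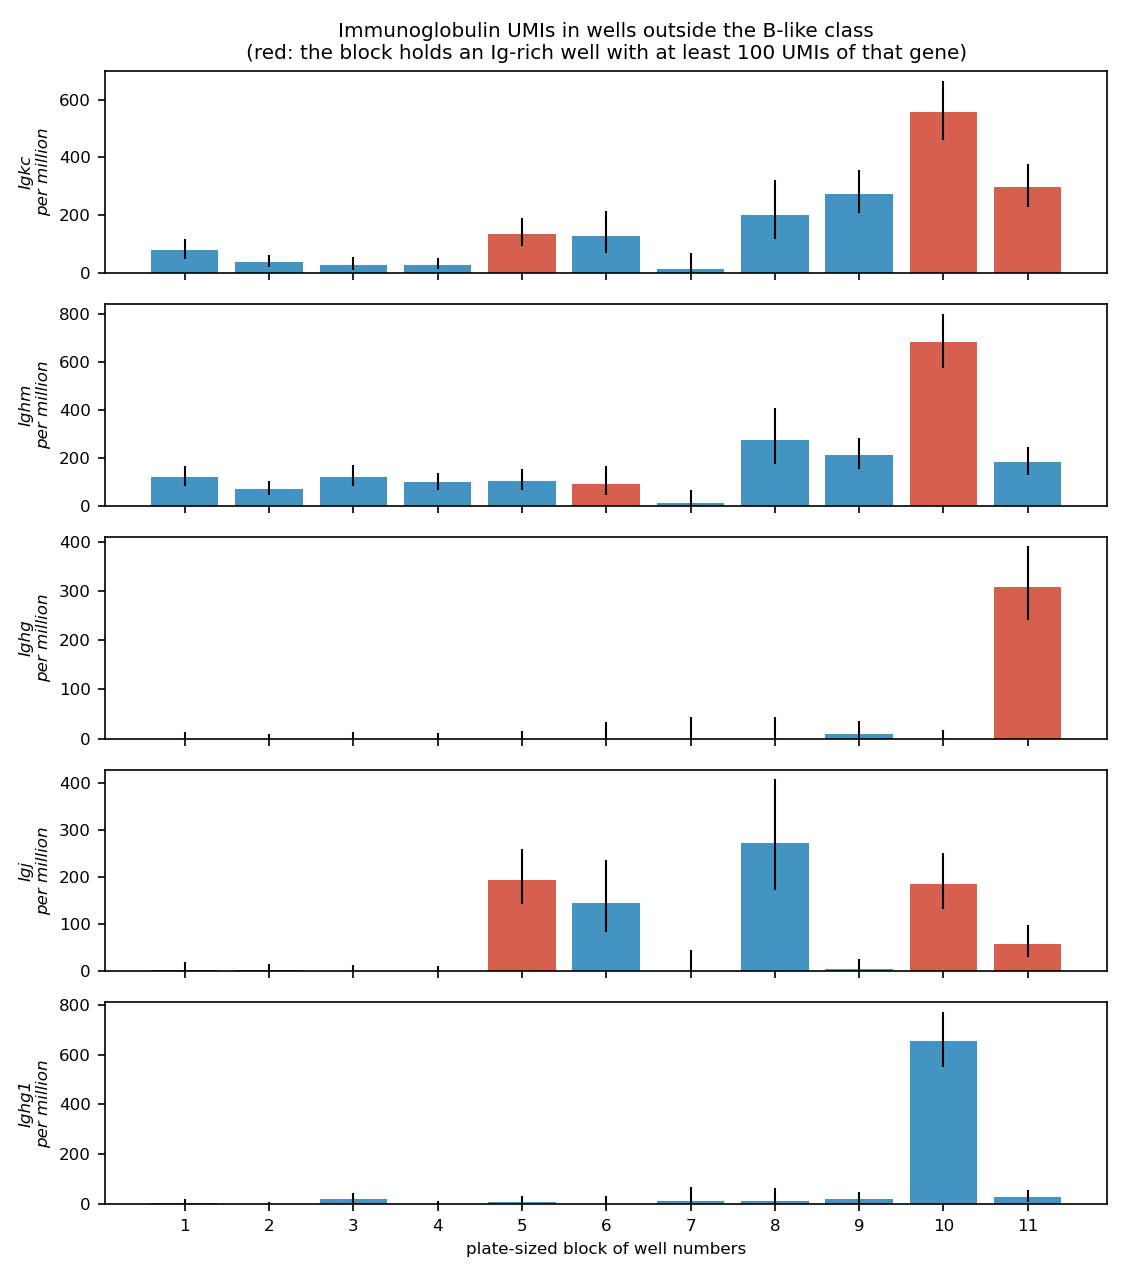
Level of 5 immunoglobulin rows in wells outside the B-like class and the Ig-rich wells, in UMIs per 1000000 gene UMIs, by block of well numbers (bars from 0, lines are 95% Poisson intervals; red bars mark blocks with an Ig-rich well that holds at least 100 UMIs of the gene). Ighg lies almost wholly in block 11 at 309, and Ighg1 in block 10 without such a well. Wells with under 300 gene UMIs, which have no class, are included.

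The number of outside Ighg UMIs per well did not scale with the depth of the well. Outside wells of block 11 were put in 3 depth bins of 104 wells. In the shallowest bin (76 to 363 gene UMIs) it was 0.32 per well (interval 0.22 to 0.45), in the middle bin 0.13 (0.07 to 0.23) and in the deepest bin (756 to 3354) 0.22 (0.14 to 0.33). Per 1000000, these are 1440, 243 and 158. In block 10, Ighm per well did rise with depth, at 0.27, 0.39 and 0.70. Wells with under 300 gene UMIs carried 512 Igkc UMIs per 1000000 and 159 Ighg, above the 117 and 18.5 of the kept wells outside the B-like class. Of these shallow wells, the 80 in block 11 held 31 Ighg UMIs and the 948 in the other blocks held 0.

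In the pair table the members were rare. Over 4621 pairs there were 73 Igkc, 126 Ighm, 14 Ighg and 36 Igj UMIs. Cd79a was not seen (the floor of 3 counts is 0.053 per 1000000), and Cd79b, Ms4a1, Iglc2 and Pou2af1 had 1 to 3 UMIs each. All Igkc and Ighg UMIs and 26 of the 36 Igj UMIs lay in the 67 pairs of 1 block of well numbers, block 2.

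Ighm behaved otherwise in the pairs. It was found in 92 pairs, at 1 UMI in 65 of them, in 16 of the 17 blocks. Igkc was held by 2 of the 92 pairs and by 10 of the 4529 pairs without Ighm. For Igj these counts were 2 and 14, and for Cd79b 0 and 2. The 20 non-member B cell markers were at 19.2 UMIs per 1000000 in the pairs with Ighm and 16.0 in the others. The 14 T cell markers were at 3.85 (6 UMIs) and 1.73 (96 UMIs), and the part of such cells was not tested. Pairs with Ighm were deeper, with a median of 15837 gene UMIs against 10335.

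Pairs were placed along the lobule by hepatocyte landmark genes, and the outer tertiles of that score were compared. The pericentral zone (1540 pairs) held 82 Ighm UMIs and the periportal zone (1542 pairs) 18, a 4.66-fold ratio of levels (interval 2.77 to 8.25). The median depths were 10491 and 10299.5 UMIs. Igkc had 37 UMIs against 2, all from block 2, of which 2 pericentral pairs held 11 and 23. Without pairs of at least 10 immunoglobulin UMIs, Igkc had 3 against 2 UMIs (1.54-fold, interval 0.18 to 18.4), and with a split at the median score it was 1.22-fold (interval 0.75 to 2.00). Ighm and Igkc were the 2 members that reached 30 UMIs over the zones, and with all pairs in tertiles both passed 2-fold, where 5.37% of 11411 genes did in either direction.

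Ighm was not higher in the pericentral pairs of block 2. With zones taken within blocks, pericentral pairs had more Ighm UMIs in 15 of the 16 blocks with any, and block 2 had 8 against 13. With the zones of all pairs, the ratio in block 2 was 0.62 (interval 0.22 to 1.61), so its direction is within counting error. Without block 2 there were 74 pericentral and 5 periportal UMIs, a 15.1-fold ratio (interval 6.20 to 48.0), and no Igkc UMI in any pair. In 5 bins of the score without block 2, from periportal to pericentral, the Ighm level was 0.18, 0.63, 0.89, 3.17 and 4.45 UMIs per 1000000.

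**Figure D5:**
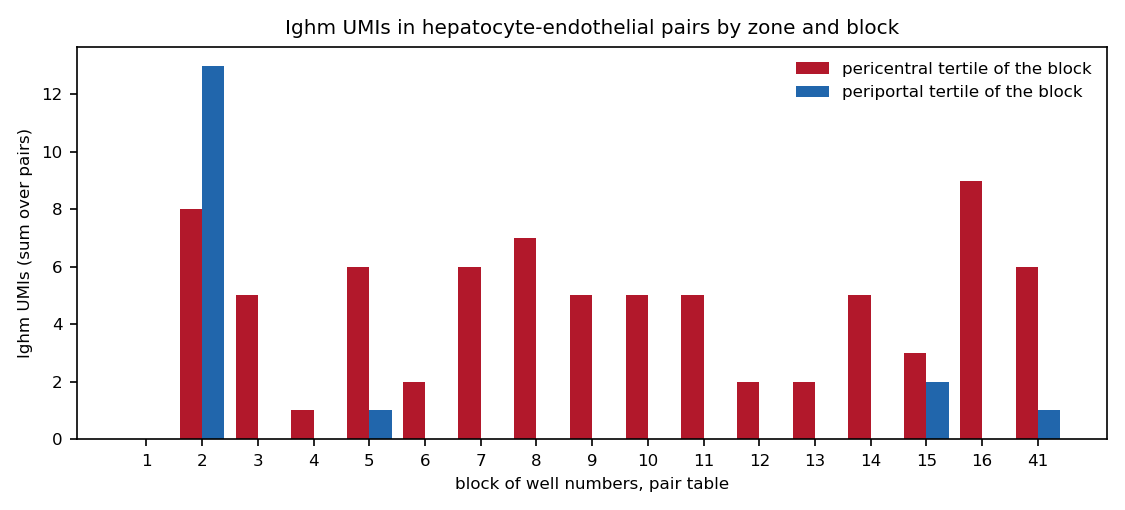
Ighm UMIs summed over the pericentral (red) and periportal (blue) tertile of pairs in each block of the pair table (bars from 0). The pericentral sum is higher in 15 blocks, and block 2 holds 8 against 13.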

How the data were processed

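The deposited tables hold counts: whole UMI counts per gene and well, without normalization by the authors, per the file headers and values. The submitters' processing notes name bcl2fastq 2.15.0.4 and the build mm9. An aligner or annotation is not given in the sources used here. Sequences come from GENCODE M21 and RefSeq (GRCm38). The 92 spike-in rows were left out. Levels are summed UMIs per 1000000 gene UMIs with exact Poisson intervals, shares have exact Clopper-Pearson intervals and ratios exact conditional binomial intervals, so depth (2660172 and 56976156 gene UMIs in the single-cell and pair tables) sets the precision.

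Single wells needed 300 UMIs (1028 fell below). They were clustered with Leiden (leidenalg 0.10.2, resolution 1.0, 15 neighbours, 30 principal components of 2000 variable genes, Python 3.11.15) and named from fixed markers; no doublet caller was run. No cluster was plasma cell-like, so the planned ratio of plasma-like to B-like wells was not made. Likeness used log2 of the level plus 10. Pairs needed 1000 UMIs and 20 UMIs of 25 landmark genes (24 found), which kept 4620.

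Named genes were all members, the 8 most like Cd79a and Igj, and for each list the 4 highest in B-like wells, with others chosen after their values were seen. One gene that this rule names is not reported here. Members and lists were chosen with earlier results of these data known. The ratio step was tested on simulated data.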

Additional observations from a re-analysis of the deposited data

Results flagged for a closer look

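The signals below lay in rows that are not members or in wells without a class. Some of them also entered the counts above. Block 10 of the single-cell table held 158 Ighg1 UMIs, in 113 of its 369 wells (30.6%) with at most 4 in a well, while each other block held 0 to 8 and no well of the table held more than 6. The share was 36.1% in NK-like, 36.8% in Kupffer-like and 28% in T-like wells of that block, and UMIs per well rose over 3 depth bins from 0.24 and 0.28 to 0.79.

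The pair table held 106 Ighg2c UMIs in 10 pairs, of which 104 lay in block 2. The 2 highest pairs held 47 and 43, beside 11 and 18 Igkc UMIs.

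Single wells with under 300 gene UMIs held 100 Igkc UMIs, in 7.00% of 1028 wells. The sources of these signals were not tested.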

How the results depend on the processing

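No paired analysis was possible because no file maps wells to mice or libraries. The level and share in B-like wells and the numbers of genes past 2-fold start from all kept wells. The outside level and the kappa share start without the Ig-rich wells, and the Ighm ratio starts from all kept pairs. The summed member level in B-like wells was 18775 UMIs per 1000000. It was 22481 with wells of at least 150 UMIs, 26988 with at least 500, 27027 with clusters from all genes, 18038 and 18014 at Leiden resolutions 0.5 and 2.0, 14188 to 20757 when each block was left out, 11002 without the Ig-rich wells, and 14390 and 28458 in the lower and upper run of well numbers. The share of B-like wells with any member was 97.2%; it was 91.5% in 1 thinning draw, 94.0% and 86.2% at 2 and 3 UMIs, 94.5% and 99.0% with wells of at least 150 and 500 UMIs, and 99.3% with clusters from all genes. Igkc, Ighm, Ighg and Igj outside B-like wells summed to 342 UMIs per 1000000; this was 306 in wells with under 10 immunoglobulin UMIs, 660 and 196 in blocks with and without an Ig-rich well, 1163 in wells under 300 UMIs and 1219 with the Ig-rich wells kept in. The number of members at least 2-fold higher stayed within 1.5 times of 8, while all genes past it were 671, 1109 with a minimum of 10 UMIs and 1784 with more than 1. The kappa share was 31.7%, and 59.5% with the leading chain at 80%. The Ighm ratio in pairs was 4.66 and 15.1 without block 2. The cause of these shifts was not tested. The settings on Ig-rich wells, runs, block 2, blocks 10 and 11 and single wells were chosen after seeing the data. So were the expected shares at equal depth. The ratio of plasma-like to B-like wells was not run. Depth limits Cd79a most, with 44 UMIs in all.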
